A study of Mus musculus with 6 samples.

Results

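Transcripts of 10 mouse genes were examined, 6 that encode receptors or regulators of natural killer (NK) cells and 4 that encode the signalling chains of the T cell receptor. They were matched by gene symbol to the Ensembl identifiers of the read counts, and all 10 were found among 37991 identifiers. The 6 NK genes were Ncr1, Klrb1c, Klrk1, Klrd1, Eomes and Il2rb, and the 4 T cell receptor genes were Cd3d, Cd3e, Cd3g and Cd247. RNA came from whole mouse tumours labelled as a cutaneous squamous cell carcinoma line, a cancer of skin keratinocytes. Kindlin-1 was knocked out in 3 libraries (Kindlin-1 Null) and expressed in the other 3 (Kindlin-1 WT). Kindlin-1 is an integrin-binding adaptor encoded by Fermt1. The sources used here give no host strain, sex, age, immune status or tumour site, and no detail of how the knockout was made. The titles give null libraries 2 and 3 a shared mouse number, and likewise wild-type libraries 1 and 2. The deposited data of null library 3 are named with another mouse number than its title. Whether the 3 libraries of a group are 3 animals is not stated, and p-values describe no more than the spread among these libraries, which may be technical.

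NK cells are lymphocytes that kill stressed or transformed cells without a rearranged antigen receptor. They read germline-encoded activating and inhibitory receptors, many of them C-type lectin-like proteins of the Klr gene complex, which signal through adaptor proteins. T cells recognise peptides with a rearranged receptor whose chains cannot signal alone and depend on CD3 delta, epsilon, gamma and the zeta chain. Some of the 10 genes are shared between these lineages. NKG2D (Klrk1), CD94 (Klrd1), Eomes and the interleukin-2 receptor beta chain (Il2rb) also occur in activated or memory CD8 T cells, and the zeta chain (Cd247) is used by NK receptors. Ncr1 and Klrb1c on the NK side, and Cd3d, Cd3e and Cd3g on the T cell side, separate the lineages best.

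Depth differed widely between libraries. The read total over genes was 1138318, 31487255 and 5226493 in null libraries 1 to 3, and 1283566, 161711 and 15529242 in wild-type libraries 1 to 3. A count of 3 reads corresponded to between 0.0947 and 2.75 CPM (counts scaled to library size) in null libraries, and to between 0.186 and 18.3 CPM in wild-type libraries. Wild-type library 2 is the shallowest, and a gene at 10 CPM has only a few reads in it. Fermt1 had 0, 2 and 2 reads in the null libraries and 16, 2 and 1040 reads in the wild-type libraries. Of 8 keratinocyte markers 5 were tested and 1 fell (Krt14), with a summed level of 41.2 to 87.9 CPM in null and 64.3 to 128 CPM in wild-type libraries. Krt5, the defining basal keratin, had 0, 5 and 2 reads in null and 5, 0 and 5 reads in wild-type libraries. All 8 skeletal muscle markers (Acta1, Ckm, Des, Ttn, Tnnt3, Myh4, Mylpf and Tnni2) were lower in null tumours by the test described below, with a summed level of 44.8 to 114 CPM in null and 555 to 1368 CPM in wild-type libraries. Mylpf lost its call in 7 of 13 alternatives. Myh4 and Krt14 each lost theirs in 1, limma-voom with mouse number as a random effect (adjusted p = 0.058 and 0.0502). The part of the depth and of the muscle RNA in the values that follow was not tested.

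RefSeq promoters (GRCm38.p6, 250 bases before to 50 after the start) were matched for 8 of the 10 genes, and Klrd1 and Il2rb were not matched. The promoters of 3 genes are shown: an NK receptor with reads in every library, a receptor of the Klr complex, and the CD3 chain with the fewest reads. Capitals mark the letters TGTGGT or, on the other strand, ACCACA, the core motif of RUNX factors, which act in both lineages.
Ncr1, chr7:4337474-4337773, plus strand: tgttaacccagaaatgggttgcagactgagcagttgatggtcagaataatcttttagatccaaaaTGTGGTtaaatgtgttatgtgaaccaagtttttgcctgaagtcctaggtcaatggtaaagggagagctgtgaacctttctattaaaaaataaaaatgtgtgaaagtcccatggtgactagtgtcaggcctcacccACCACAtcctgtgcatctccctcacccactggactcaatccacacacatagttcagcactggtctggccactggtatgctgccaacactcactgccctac
Klrk1, chr6:129623815-129624114, minus strand: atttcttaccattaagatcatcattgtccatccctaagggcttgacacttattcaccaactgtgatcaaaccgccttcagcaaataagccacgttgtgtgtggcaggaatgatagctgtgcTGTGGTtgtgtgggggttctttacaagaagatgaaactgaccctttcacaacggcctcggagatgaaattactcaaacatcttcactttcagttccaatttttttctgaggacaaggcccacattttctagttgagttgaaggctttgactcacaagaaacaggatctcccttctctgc
Cd3e, chr9:45009562-45009861, minus strand: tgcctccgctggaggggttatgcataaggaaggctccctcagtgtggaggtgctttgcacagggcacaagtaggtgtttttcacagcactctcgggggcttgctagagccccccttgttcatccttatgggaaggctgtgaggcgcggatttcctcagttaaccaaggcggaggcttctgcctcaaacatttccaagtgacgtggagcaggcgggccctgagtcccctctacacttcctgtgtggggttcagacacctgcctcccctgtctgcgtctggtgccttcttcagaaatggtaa
These letters were found in 3 of the 4 NK promoters matched (Ncr1, Klrb1c and Klrk1, with Eomes lacking them) and in 0 of the 4 T cell receptor promoters, against 16.8% of all 32851 promoters in the table. The T-box core GGTGTGA, searched on both strands and able to overlap the RUNX letters, was in 0 of the 8 promoters and in 3.98% of all. A match is a description of these windows and says nothing of binding.

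NK transcripts were detected in tumours of both genotypes. All 6 NK genes passed the expression filter, 0 of them passed the test between genotypes, and all 6 fitted fold changes were positive. In the quasi-likelihood test of edgeR with Benjamini-Hochberg adjustment over all 11887 genes tested, 5.79% of genes were called. The median log2 fold change (null minus wild type) was 0.32 for the 6 NK genes and 0.01 for all tested genes. An unadjusted p under 0.05 was reached by 1 of the 6, Klrd1, and by 25.1% of all tested genes, and DESeq2 and limma-voom also called 0. In bulk tumour RNA, fewer cells of a type and less RNA per cell cannot be told apart.

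**Figure D1:**
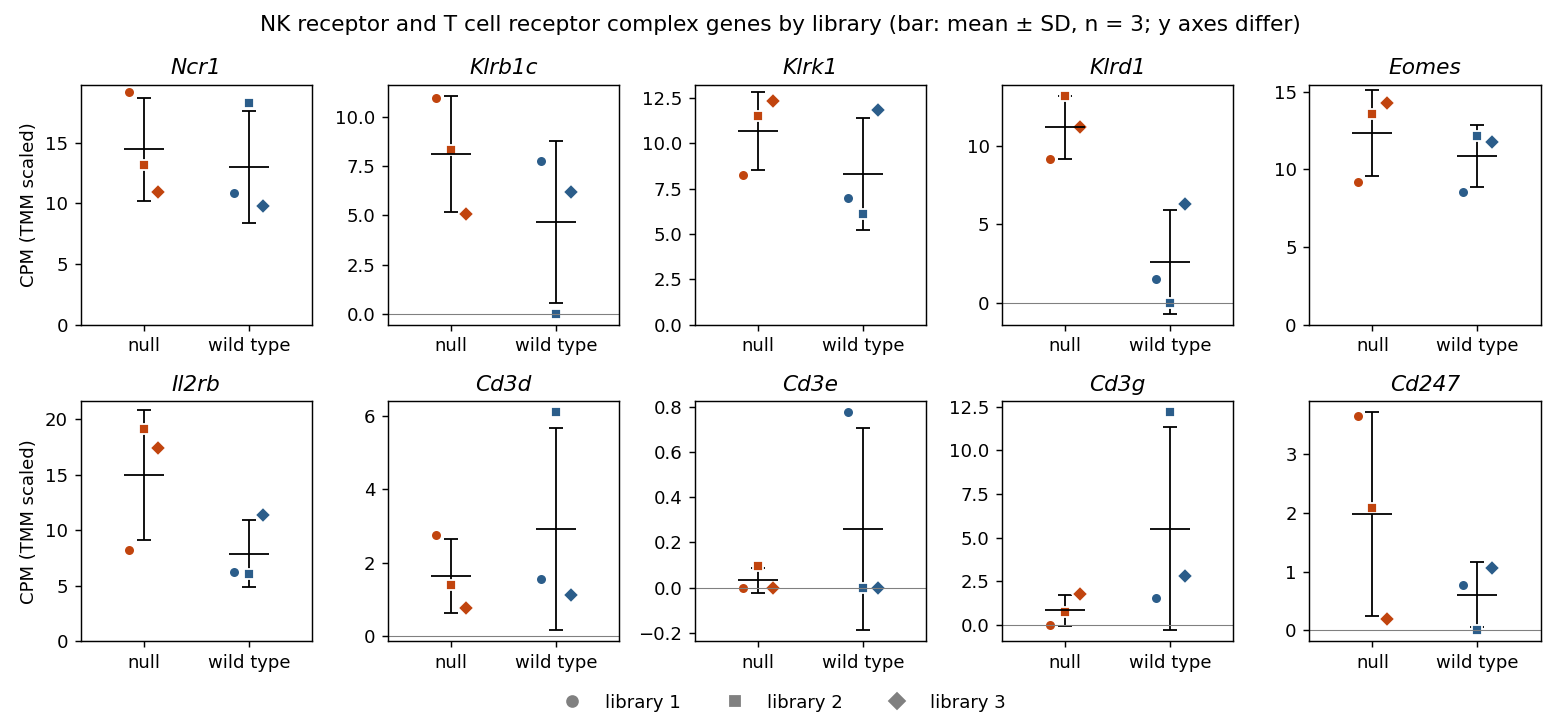
CPM (TMM scaled) of each of the 10 genes in each library, null left of wild type, with the mean and SD of 3 libraries; the y axes differ. Only for Klrd1 do all 3 null values (9.15 to 13.2 CPM) lie above all wild-type values (0 to 6.33 CPM). Cd3d and Cd3g reach 6.09 and 12.2 CPM in wild-type library 2, from 1 and 2 reads. All other values of the 4 T cell receptor genes are at most 3.66 CPM.

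Ncr1 encodes NKp46, an activating receptor that is close to restricted to NK cells and related innate lymphoid cells. It stood at 19.2, 13.2 and 11 CPM in null libraries 1 to 3, and at 10.9, 18.3 and 9.8 CPM in wild-type libraries 1 to 3. The groups overlapped, and the highest wild-type value rested on 3 reads. The fitted fold was 1.27, with a 95% interval of 0.714 to 2.26 (log2 fold change 0.34, SE 0.38, edgeR adjusted p = 0.602). Klrb1c encodes NK1.1, the receptor long used to stain mouse NK cells in some strains. Its values were 11, 8.3 and 5.09 CPM in null and 7.76, 0 and 6.2 CPM in wild-type libraries, again with overlap. The fold was 1.23 (95% interval 0.592 to 2.54, edgeR adjusted p = 0.739).

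Klrk1 encodes NKG2D, which binds stress-induced ligands on tumour cells. It was at 8.24, 11.5 and 12.3 CPM in null libraries, and at 6.99, 6.09 and 11.8 CPM in wild-type libraries. Both deep libraries, null 2 and wild-type 3, gave nearly the same value, and the ratio of pooled reads was 1.01 (95% exact interval 0.849 to 1.2, counting error only). The fitted fold was 1.13 (95% interval 0.641 to 2, edgeR adjusted p = 0.98). For this gene edgeR did not let p fall below that of a test with Poisson variance. The ratio of pooled reads was 1.31 for Ncr1, 1.27 for Klrb1c, 1.17 for Eomes, 1.7 for Il2rb and 2.16 for Klrd1. Of their 95% exact intervals only that of Eomes (0.992 to 1.38) held 1. These intervals leave out the spread between libraries. Eomes, a T-box factor of NK cell maturation and memory CD8 T cells, stood at 9.15, 13.5 and 14.3 CPM in null and 8.54, 12.2 and 11.8 CPM in wild-type libraries. Its fold was 1.19 (95% interval 0.696 to 2.04, edgeR adjusted p = 0.691).

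Klrd1 had the largest fitted fold change of the 6 tested genes. It encodes CD94, which pairs with NKG2A to form an inhibitory receptor or with NKG2C or NKG2E to form an activating one. Null libraries 1 to 3 held 10, 417 and 57 reads, or 9.15, 13.2 and 11.2 CPM. Wild-type libraries 1 to 3 held 2, 0 and 102 reads, or 1.55, 0 and 6.33 CPM. All null values lay above all wild-type values, which among all tested genes was so for 16.3% (30.5% in either direction). The 0 reads of wild-type library 2 allow up to 18.3 CPM (3 counts, counting error only), so they do not set that library below the null libraries. Klrd1 averaged 11.2 ± 2.0 CPM in null and 2.63 ± 3.3 CPM in wild-type tumours (SD, n = 3 each). The fold was 2.46 with a 95% interval of 1.19 to 5.11 (log2 fold change 1.3, SE 0.49), and the unadjusted p of 0.0193 became an edgeR adjusted p of 0.123. It did not pass in any of the 12 alternative fits in which it had an adjusted p (0.0614 to 0.337). With all libraries the ratio of pooled reads was 2.16 (95% exact interval 1.74 to 2.69, counting error only). Without wild-type library 3 only 2 wild-type reads remained, and the ratio was 9.28 (95% exact interval 2.55 to 76.8). Its log2 fold change was 0.98 on leaving out wild-type library 1. CD94's partners were too rare to test: Klrc1 (NKG2A) had 5, 43 and 1 reads in null and 0, 1 and 11 reads in wild-type libraries, and Klrc2 (NKG2C) had 1, 45 and 5 against 2, 0 and 5.

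Il2rb is the chain through which NK cells and memory T cells receive interleukin-15 and interleukin-2 signals. It stood at 8.24, 19.1 and 17.4 CPM in null libraries, and at 6.21, 6.09 and 11.4 CPM in wild-type libraries. Null library 1 lay below wild-type library 3, so the groups overlapped. The fold was 1.71 (95% interval 0.929 to 3.13, log2 fold change 0.77, SE 0.41, edgeR adjusted p = 0.253). On leaving out wild-type library 3 it was 1.37 on the log2 scale (edgeR adjusted p = 0.215).

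**Figure D2:**
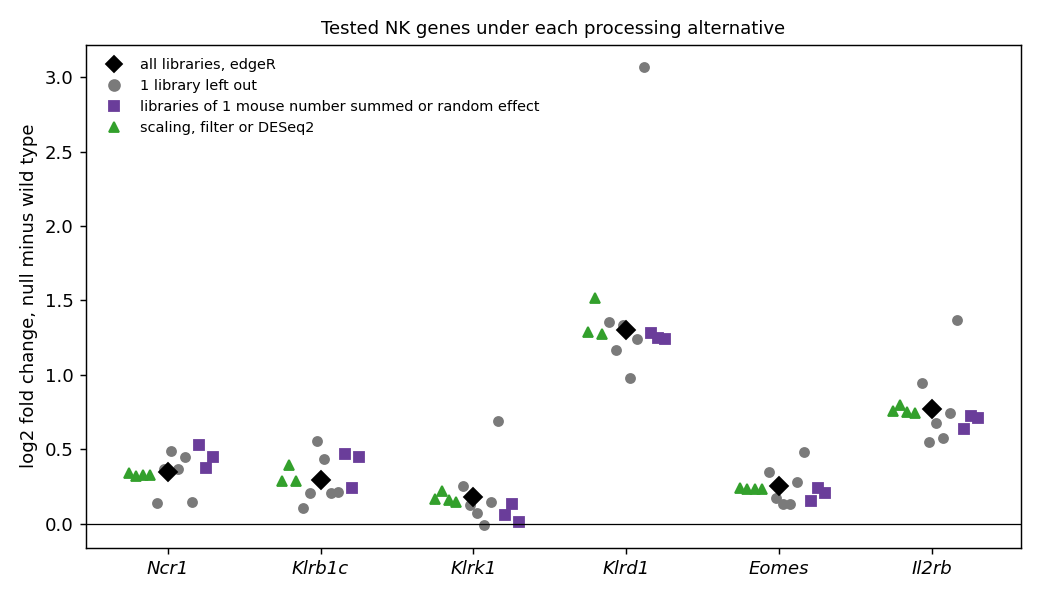
Log2 fold change (null minus wild type) of the 6 tested NK genes under every processing alternative; each point is 1 fit, the black diamond the fit with all libraries. Klrd1 reaches 3.07 when wild-type library 3 is left out, and Klrk1 touches 0 (-0.0081) without wild-type library 1.

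The chains of the T cell receptor complex were close to the detection limit. None of the 4 passed the expression filter, so none has a fold change in the main fit, and reads are given. Cd3e, the epsilon chain required for surface assembly of the receptor, had 0, 3 and 0 reads in null libraries and 1, 0 and 0 reads in wild-type libraries, 4 reads among 54826585. The ratio of pooled CPM was 1.39 (95% exact Poisson interval 0.112 to 73). Cd3d, the delta chain, had 3, 44 and 4 reads in null and 2, 1 and 18 reads in wild-type libraries. Its pooled level was 1.35 CPM in null (95% exact Poisson interval 1 to 1.77) and 1.19 CPM in wild-type tumours (0.74 to 1.83). The groups overlapped library by library, and the pooled ratio of 1.13 turned to 0.652 without wild-type library 3.

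The pooled ratios of Cd3g and Cd247 lay on opposite sides of 1. Cd3g, the gamma chain, had 0, 24 and 9 reads in null and 2, 2 and 45 reads in wild-type libraries. Pooled, it stood at 0.871 CPM in null (95% exact Poisson interval 0.599 to 1.22) and 2.79 CPM in wild-type tumours (2.06 to 3.69), a ratio of 0.312 (0.195 to 0.496, counting error only). Per library the groups overlapped, since null library 3 (1.76 CPM) lay above wild-type library 1 (1.55 CPM), and without null library 2 the ratio was 0.52. Cd247, the zeta chain that NK receptors also use, had 4, 66 and 1 reads in null and 1, 0 and 17 reads in wild-type libraries. Its pooled ratio was 1.83 (95% exact interval 1.08 to 3.26) and turned to 0.787 without null library 2 and 2.72 without wild-type library 3. With no expression filter none of the 4 passed (edgeR adjusted p = 0.956 for Cd3d, 0.901 for Cd3e, 0.3 for Cd3g and 0.628 for Cd247). Cd247 and Cd3e, and on the NK side Klrb1c and Eomes, overlap other annotated genes. Without strand information, reads of an overlapping gene cannot be told apart. Only for Cd247 were overlapping genes counted here (Pou2f1 with 1127 reads and Gm16565 with 4 over all libraries).

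Scaled to exon length and pooled over libraries, NK genes stood above the CD3 chains in both genotypes. In pooled reads the 6 NK genes ranged from 1.6 (Klrk1) to 9.97 CPM per kb (Klrd1) in null tumours and from 1.59 (Klrk1) to 6.47 CPM per kb (Ncr1) in wild-type tumours. The 4 T cell receptor genes ranged from 0.0194 (Cd3e) to 0.742 CPM per kb (Cd3d) in null tumours and from 0.0139 (Cd3e) to 0.853 CPM per kb (Cd3g) in wild-type tumours. Trbc2, a beta chain constant region outside these 10 genes, stood above every NK gene, at 21.8 CPM per kb in null and 36.3 in wild-type tumours. Pooled reads come mostly from the deepest library of each group. Library by library, the lowest NK gene lay above the highest CD3 complex gene in 4 of 6 libraries. The exceptions were null library 1, with Cd3d at 1.51 and Klrk1 at 1.15 CPM per kb, and wild-type library 2, with Cd3g at 3.72 CPM per kb from 2 reads and Klrb1c at 0. In pooled null reads Klrd1 stood ahead of Ncr1 (8.47 CPM per kb), but in null library 1 Ncr1 was at 12.5 and Klrd1 at 7.14 CPM per kb. In pooled wild-type reads Klrd1 was at 4.62 CPM per kb, behind Ncr1. In pooled null reads the next levels were Il2rb at 4.33, Eomes at 3.25 and Klrb1c at 2.68 CPM per kb.

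**Figure D3:**
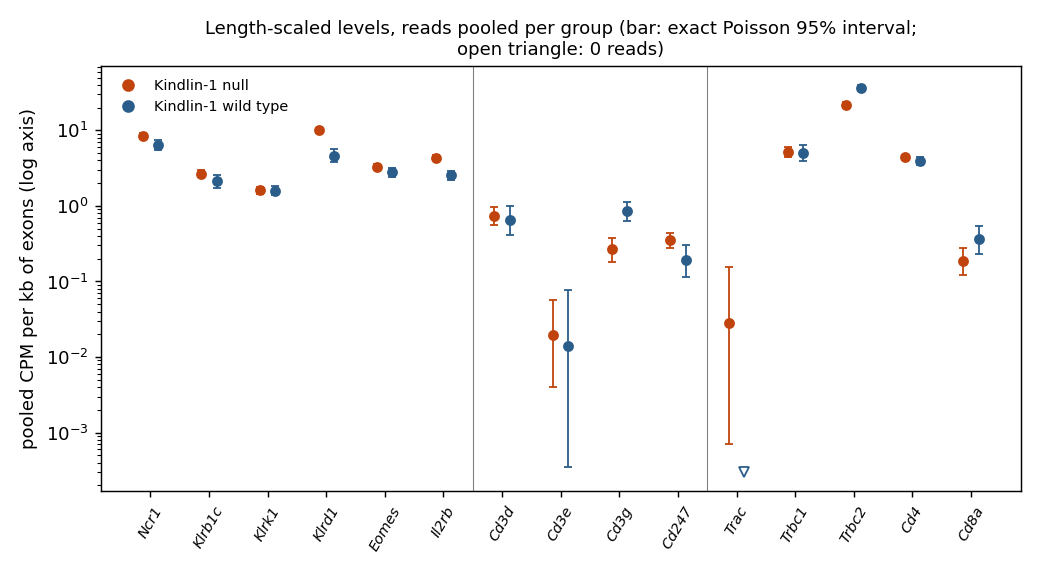
Pooled CPM per kb of exons (log axis) for the 10 genes and 5 T cell receptor or co-receptor genes, null left of wild type in each pair, with exact Poisson 95% intervals. The NK genes lie at 1.59 to 9.97 CPM per kb, Cd3e and Trac lie far below, and Trbc2 reaches 21.8 in null and 36.3 CPM per kb in wild-type tumours.

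The balance of NK over CD3 reads within a library does not depend on scaling. Ncr1 and Klrb1c reads were 91.7%, 90.5% and 86.3% of the reads of Ncr1, Klrb1c, Cd3d, Cd3e and Cd3g in null libraries 1 to 3. They were 82.8%, 50% and 80.4% in wild-type libraries 1 to 3, where library 2 held 6 such reads. Every null library lay above every wild-type library, and the nearest pair, null library 3 (Wilson 95% interval 78 to 91.8) and wild-type library 1 (65.5 to 92.4), overlapped in counting error. Pooled, the share was 90.1% in null (88 to 91.9, 882 reads) and 80.1% in wild-type tumours (75.6 to 83.9, 356 reads). It is a description of 5 chosen genes, with no test. With Klrk1, Klrd1 and Eomes added to the NK side, the shares were 96.2% in null and 91.8% in wild-type tumours. On the CD3 side, Cd3g gave 33 of the 87 CD3 reads in null and 49 of the 71 in wild-type libraries.

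**Figure D4:**
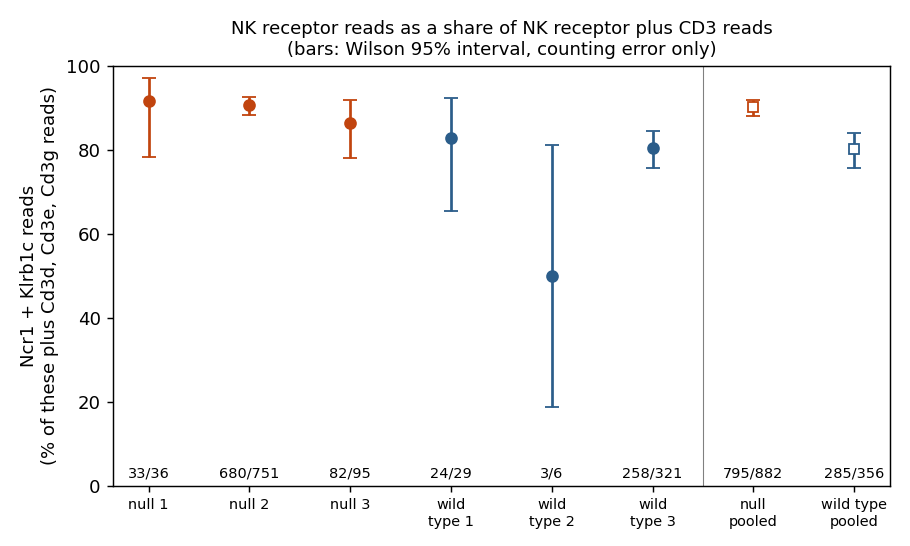
Ncr1 and Klrb1c reads as a percent of these plus Cd3d, Cd3e and Cd3g reads, per library and pooled, with Wilson 95% intervals and the read counts at the foot. Null libraries lie at 86.3% to 91.7%, and wild-type libraries at 50% to 82.8%.

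NK reads were also set against reads of 8 genes common to leukocytes, such as Ptprc (CD45). Ncr1 and Klrb1c together had 24.4, 14.3 and 9.98 reads per 1000 leukocyte reads in null libraries, and 10.8, 10.8 and 9.52 in wild-type libraries. Null library 3 lay inside the wild-type range. The CD3 genes had 2.22, 1.5 and 1.58 per 1000 in null libraries and 2.26, 10.8 and 2.32 in wild-type libraries, the 10.8 resting on 3 reads. Of the 8 leukocyte genes 0 passed (edgeR; 2 had an unadjusted p under 0.05, and DESeq2 and limma-voom called 0), with a median log2 fold change of 0.07. Their summed level was nevertheless lower in every null library (1237 to 1608 CPM) than in every wild-type library (1681 to 1720 CPM). A lower sum raises the null rates per 1000 leukocyte reads, and its part in them was not tested.

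Other parts of the T cell receptor were uneven. Trac, the alpha chain constant region, had 1 read in null library 2 and 0 in the other libraries. Trbc2, a beta chain constant region, stood at 21, 15.1 and 13.7 CPM in null libraries and 36.5, 42.6 and 24 CPM in wild-type libraries. All null values lay below, as for 14.2% of all tested genes, and the fold of 0.512 (95% interval 0.312 to 0.84) had an edgeR adjusted p of 0.0965. Trbc1 stood at 3.79 ± 0.94 CPM in null and 4.32 ± 1.56 CPM in wild-type tumours (SD, n = 3 each). Cd8a, the CD8 co-receptor of cytotoxic T cells, had 0, 24 and 2 reads in null and 7, 0 and 16 reads in wild-type libraries, while Cd4, which myeloid cells can also carry, averaged 15.2 ± 4.5 CPM in null and 22.6 ± 12 CPM in wild-type tumours. Of the 19 genes in the list of receptor chains, co-receptors and co-stimulators, 16 had a read, 3 were tested and 0 passed (edgeR; 1 unadjusted, and 0 by DESeq2 or limma-voom).

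Of 17 genes of T cell receptor signalling, 9 were tested and 0 passed (edgeR; 1 had an unadjusted p under 0.05, and DESeq2 and limma-voom called 0), with a median log2 fold change of -0.29. Fyn, a Src-family kinase used in many cell types, averaged 65.5 ± 14.4 CPM in null and 86.3 ± 9.0 CPM in wild-type tumours. The adaptor Lcp2 (SLP-76) averaged 47.6 ± 5.6 and 52.4 ± 3.3 CPM, and the phosphatase Ptpn22 35.8 ± 9.1 and 28.4 ± 3.1 CPM, null first in each pair. These 3 are also expressed outside T cells. Lck, the kinase that starts signalling at CD3, stood at 11, 6.56 and 6.85 CPM in null libraries and 6.99, 0 and 11.8 CPM in wild-type libraries. Its mean over libraries was higher in null tumours (8.13 ± 2.47 CPM, against 6.26 ± 5.93 CPM in wild type; SD, n = 3 each), while its fitted log2 fold change was -0.29 (edgeR adjusted p = 0.734) and its ratio of pooled reads 0.594 (95% exact interval 0.492 to 0.719, counting error only).

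**Figure D5:**
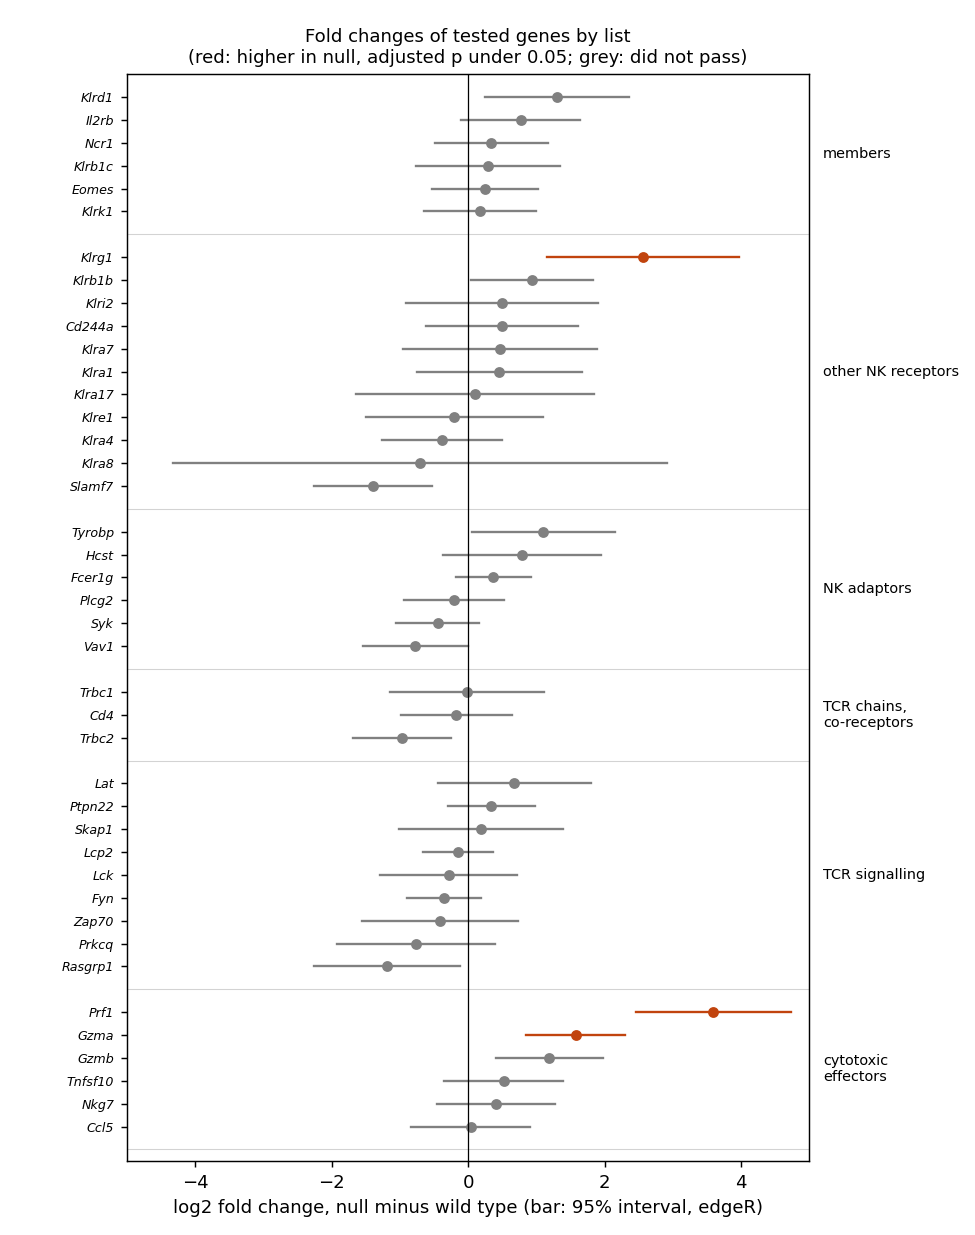
Log2 fold change (null minus wild type) with its 95% interval for the tested genes of 6 lists. Klrg1, Prf1 and Gzma are the 3 genes drawn in red, higher in null tumours by the test, and most intervals of NK and T cell receptor genes cross 0.

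Among 27 other NK receptors, 11 were tested, 1 rose and 0 fell, with a median log2 fold change of 0.46. With the filter of 10 CPM in 3 libraries, 3 of them were tested, 0 rose and 1 fell in edgeR. Klrg1, an inhibitory receptor of mature NK and effector T cells that also occurs on some innate lymphoid cells, rose 5.9-fold (95% interval 2.23 to 15.7, edgeR adjusted p = 0.0393). It was at 15.6, 12.1 and 6.07 CPM in null libraries and at 0, 6.09 and 2.11 CPM in wild-type libraries. The value of wild-type library 2 is 1 read, and it lies just above null library 3. The call was lost without null library 1 (adjusted p = 0.142), null library 3 (0.0531) or wild-type library 3 (0.135). With mouse number as a random effect it was lost too (limma-voom, 0.0916). Without wild-type library 3 a single wild-type read remained, with a ratio of 16.6 (95% exact interval 2.96 to 656). Klrb1b, an inhibitory relative of NK1.1, stood at 20.1, 13.2 and 17.2 CPM in null and 6.99, 0 and 10.3 CPM in wild-type libraries, without overlap (edgeR adjusted p = 0.178). Slamf7, a receptor of NK, plasma and myeloid cells, stood at 4.58, 4.8 and 4.11 CPM in null and 14, 12.2 and 10.4 CPM in wild-type libraries, all lower in null (log2 fold change -1.39, adjusted p = 0.0586). Of the 11 tested receptors 1 lay above and 1 below without overlap, against 16.3% and 14.2% of all tested genes.

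Klra8 (Ly49H), chosen after its values were seen, divided the libraries without regard to genotype. It stood at 0, 0.41 and 11.2 CPM in null libraries and at 15.5, 18.3 and 0.372 CPM in wild-type libraries. Null libraries 2 and 3, which share a mouse number in the titles, had 95% exact Poisson intervals of 0.218 to 0.702 and 8.45 to 14.5 CPM. Ncr1 was at 13.2 and 11 CPM in null libraries 2 and 3, and ranged from 9.8 to 19.2 CPM over all libraries of both groups. Klra genes are near-identical to each other, and reads that fit several of them may be missing or assigned to the wrong member.

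NK receptors signal through small adaptors, and of 9 listed adaptor and signalling genes 6 were tested and 0 passed in edgeR (1 with an unadjusted p under 0.05, 0 by DESeq2 and 1 by limma-voom). Tyrobp (DAP12), which myeloid cells express strongly, averaged 326 ± 68 CPM in null and 166 ± 111 CPM in wild-type tumours. Fcer1g, the Fc receptor gamma chain that NKp46 uses and that macrophages and mast cells share, averaged 206 ± 18 and 162 ± 32 CPM, and the kinase Syk 94.2 ± 19.8 and 121 ± 44 CPM, null first. Hcst (DAP10), the adaptor of NKG2D, stood at 5.49, 4.32 and 5.87 CPM in null and 1.55, 0 and 3.66 CPM in wild-type libraries, without overlap (edgeR adjusted p = 0.369). Of the 6 tested genes 2 lay above and 0 below without overlap, against 16.3% and 14.2% of all tested genes.

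In the interleukin-2 and interleukin-15 pathway 12 of 16 genes were tested, 0 rose and 1 fell. Jak3, the kinase bound to the common gamma chain, fell to 18.3, 38.8 and 23.1 CPM in null libraries, against 58.2, 60.9 and 108 CPM in wild-type libraries (fold 0.348, 95% interval 0.212 to 0.573, edgeR adjusted p = 0.0215). The call was lost without null library 1 or 3 or wild-type library 3 (adjusted p = 0.107, 0.0803 and 0.132), and in limma-voom (0.051). Jak1 averaged 144 ± 21 CPM in null and 116 ± 29 CPM in wild-type tumours, and Stat5b, the main transcription factor downstream, 76.7 ± 3.0 and 70.3 ± 9.5 CPM. Il2rg and Il15, chosen after their values were seen, were higher in every null library without passing. They are the 2 of the 12 tested genes whose null values all lay above wild type, while 3 lay below, Jak3 among them. Over all tested genes null lay above without overlap for 16.3% and below for 14.2%. Il2rg, the common gamma chain, stood at 24.7, 35.1 and 40.3 CPM in null and 22.5, 12.2 and 18.7 CPM in wild-type libraries (adjusted p = 0.124). Il15 stood at 20.1, 15.3 and 17.2 CPM in null and 7.76, 6.09 and 13.6 CPM in wild-type libraries (adjusted p = 0.281).

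Of 14 transcription factors of NK and T cells 8 were tested, 1 rose and 0 fell. Nfil3, needed for NK cell development and also induced in many other cells, rose 4.36-fold (95% interval 2.08 to 9.14, edgeR adjusted p = 0.0283), with 55.8, 21.9 and 40.7 CPM in null and 6.21, 30.4 and 7.75 CPM in wild-type libraries. The groups overlapped through the 5 reads of wild-type library 2. The call was lost without null library 1 or 3 or wild-type library 1 or 3 (highest adjusted p = 0.16). Id2, an inhibitor of E proteins in innate lymphocytes, averaged 66.8 ± 4.7 CPM in null and 42.3 ± 5.2 CPM in wild-type tumours (adjusted p = 0.114). Zeb2, of mature NK cells and macrophages, averaged 83.3 ± 19.3 and 105 ± 22 CPM (adjusted p = 0.448). Tbx21 (T-bet) was too rare to test, with 1, 24 and 3 reads in null and 1, 0 and 30 reads in wild-type libraries.

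Among 14 ligands of NK receptors, 8 were tested, 1 rose and 0 fell. Clec2d, the ligand of inhibitory Klrb1 receptors, rose 2.67-fold to 317, 134 and 163 CPM in null libraries, against 81.5, 91.3 and 63.5 CPM in wild-type libraries (95% interval 1.6 to 4.46, edgeR adjusted p = 0.0318). The call was lost without null library 1 and without wild-type library 1, 2 or 3 (highest adjusted p = 0.116), and with the wild-type libraries of a shared mouse number summed (0.0598). H2-T23 (Qa-1), which CD94 receptors bind, averaged 111 ± 20 CPM in null and 85.2 ± 36.5 CPM in wild-type tumours, and Pvr 20.2 ± 0.3 and 30.8 ± 11.7 CPM. Among NKG2D ligands, Raet1e averaged 4.45 ± 2.03 CPM in null and 2.89 ± 2.73 CPM in wild-type tumours, and Ulbp1 had 0 reads in all 6 libraries. Raet1a, Raet1b and Raet1c were not matched and have no value here.

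Cytotoxic effectors are shared by NK and T cells. Of 9 listed genes 6 were tested, 2 rose and 0 fell. Prf1 (perforin) stood at 50.3, 60.5 and 32.9 CPM in null and 9.31, 0 and 2.54 CPM in wild-type libraries (fold 12.1, 95% interval 5.53 to 26.5, edgeR adjusted p = 0.00241). Its log2 fold change of 3.6 became 2.58 on omitting wild-type library 3 and 4.28 on omitting wild-type library 1, and it passed in both fits. Gzma (granzyme A) rose 2.99-fold and lost its call without null library 1 or wild-type library 3 (edgeR adjusted p = 0.0887 and 0.0514). Gzmb (granzyme B) averaged 32.3 CPM in null and 18.9 CPM in wild-type tumours and had an edgeR adjusted p of 0.0687. Ncr1 in the same libraries had a fold of 1.27. No test compared the fold of Prf1 with that of Ncr1.

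Over these 8 pathway lists together, 63 of 125 genes were tested, 5 rose and 1 fell, against 2.26% of all tested genes higher and 3.52% lower. Markers of other cells moved with genotype as well. Of 7 mast cell markers, all tested, 5 rose in edgeR (Cma1, Mcpt4, Tpsb2, Ms4a2 and Fcer1a), 3 in DESeq2 and 1 in limma-voom (summed level 1409 to 4695 CPM in null and 374 to 1041 CPM in wild-type libraries). In edgeR 0 of the 7 passed on leaving out null library 1 or 3 or wild-type library 2 or 3, and 6 on leaving out null library 2. Fcer1g and the innate lymphoid marker Il1rl1 are also expressed by mast cells, and the part of these cells in the values here was not tested. Of 9 macrophage markers 0 passed (edgeR; 1 unadjusted, 0 by DESeq2 and 1 by limma-voom; 6027 to 7476 CPM in null and 3547 to 6561 CPM in wild-type libraries). The part of other Ncr1-bearing cells in the NK values was not tested. Of 8 innate lymphoid cell markers 5 were tested and 0 passed (edgeR; 3 unadjusted, 1 by DESeq2 and 0 by limma-voom). Cxcr6 among them stood at 35.9 ± 21.5 CPM in null and 9.41 ± 4.08 CPM in wild-type tumours (adjusted p = 0.0556), and Itga1 at 7.16 ± 0.64 and 7.03 ± 4.56 CPM. Of 6 B cell markers, 2 were tested and 0 passed (edgeR; 0 unadjusted, and 0 by DESeq2 and limma-voom). Neutrophil markers rose for 1 of 4 tested (S100a9), and dendritic cell markers fell for 1 of 5 (Itgax). Neither passed once wild-type library 3 was omitted (edgeR adjusted p = 0.0634 for S100a9, whose log2 fold change of 2.84 became 1.94, and 0.068 for Itgax).

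Profiles over the 6 libraries were compared by the root mean square difference of centred log2 CPM. The 5 genes closest to summed Ncr1 and Klrb1c were Pdp1 (0.106), Mfsd14b (0.111), Actr3 (0.124), Ube2g1 (0.126) and Evi2a (0.128). Of the 11885 genes compared, 84.5% lay within 1 log2 unit, so a difference under 1 sets few genes apart. Closest to summed Cd3d, Cd3e and Cd3g were Gm13889 (0.19), Zcchc3 (0.274), Dusp18 (0.28), Lrrc56 (0.282) and Krt18 (0.283), all highest in wild-type library 2, where the CD3 sum rests on 3 reads.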

How the data were processed

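Each deposited file gives whole-number read counts per Ensembl gene, with no normalization by the authors, for 1 library. The submitters' processing notes name TopHat2, Cuffdiff, DESeq2 and build mm9. The sources used here give no version or role for them, and no counting program, annotation or strand setting. The last 5 lines hold reads in no gene and were left out of all totals and tests. Reads in no annotated feature were 4.63% to 5.84% of listed reads in null libraries and 7.15% to 12% in wild-type libraries. Ambiguous reads were 1.72% to 2.11%, and reads with several alignments 32.9% to 40%. Lars2, a check gene beside Fermt1, took 0.0417% to 0.166% of gene reads in null libraries. In wild-type libraries it took 0.473% to 1.85% (edgeR adjusted p = 0.00789). The part of these differences between the groups in the values above was not tested.

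Symbols were matched for 32919 of 37991 identifiers (86.6%) through a GENCODE table of a later build, which also gave exon lengths. No gene coordinates are therefore given, and promoter coordinates are those of GRCm38.p6. Counts were tested in R 4.3.3 with edgeR 4.0.16 (TMM scaling, default expression filter, robust quasi-likelihood fit, Benjamini-Hochberg adjustment at 0.05). Fold changes are null over wild type. Standard errors are the log2 fold change over the root of F, and 95% intervals use the t distribution. CPM are TMM scaled. Alternatives were DESeq2 1.42.0, limma-voom (limma 3.58.1) with mouse number as a random effect, other scaling and filters, summed libraries and each library left out. Code was tested on simulated counts. Within-group pairs of libraries were compared by chi-square per degree of freedom. Of the pairs that share a mouse number in the titles, the wild-type pair (libraries 1 and 2) gave 1.52. The null pair (libraries 2 and 3) gave 16.9, the highest value among null pairs. Pairs without a shared number gave 7.24 to 27. The pair at 1.52 includes the shallowest library, and the part of depth in these values was not tested. No pair came down to sampling noise, so none was treated as 1 library deposited in duplicate, which does not show that they are separate animals. Intervals on pooled reads cover counting error only. The members and gene lists were chosen with earlier results of these data known. All 10 members are named. Of each list the genes that passed are named, filled up in the pathway lists to 3 with the tested genes of highest mean CPM. The rule set the same 3 for marker lists, whose genes that did not pass are given here mostly as counts and summed levels. Klrc1, Klrc2, Hcst, Lck, Trac, Cd8a, Tbx21, Raet1e, Ulbp1, Il2rg, Il15, Klra8, Cxcr6, Itga1 and Krt5 fall outside that rule or were chosen after their values were seen. Symbols of 5 listed genes (Trdc, Sh2d1b1, Raet1a, Raet1b and Raet1c) were not matched.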

Additional observations from a re-analysis of the deposited data

How the results depend on the processing

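None of the 6 NK genes passed in any of the 13 alternatives in which it was tested (DESeq2, limma-voom with mouse number as a random effect, another scaling, no filter, a filter of 10 CPM in 3 libraries, libraries of 1 mouse number summed in both groups or in wild type, and each library left out). The filter of 10 CPM left out Klrb1c and Klrd1. The CD3 complex genes did not pass in any fit that tested them (all 4 with no filter, and between 1 and 3 of them in DESeq2, both summed fits and the fits without null library 1 or wild-type library 1 or 2). Klrk1 alone of the 6 changed sign, with log2 fold changes of -0.0081 on omitting wild-type library 1 and 0.69 on omitting wild-type library 3, and the cause was not tested. Leaving out 1 library gave between 179 (null library 1) and 855 (wild-type library 1) called genes against 688, with 225 without null library 3 and 281 without wild-type library 3. It gave between 1 and 6 called genes in the pathway lists against 6, and between 9 and 18 in the marker lists against 16. The pooled NK share differed between null and wild type by 10.1 percentage points, by 7.73 to 13 with 1 library left out, by 4.46 with the wider NK set and by 18.5 as a mean of libraries. In wild-type library 2, 3 reads stand at 18.3 CPM and 1 read at 6.09 CPM. Values under 18.3 CPM therefore rest there on fewer than 3 reads, and 0 reads do not exclude such levels. No paired analysis was possible because the labels carry no replicate numbers shared by the groups.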
